A study of Mus musculus with 2 samples.

Results

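The metallothionein genes Mt1, Mt2, Mt3 and Mt4 were followed through the growing hair follicles (HFs) of newborn mouse skin. They are 4 of the 32285 genes listed for each library. They were taken by gene symbol and were chosen by their UMI levels across marker-gated cell classes in earlier work on these data. The levels by class below are therefore a description, with no test.

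The data are 2 single-cell RNA libraries of mouse back skin at postnatal day 1 (P1), one labelled WT and one labelled PADI4 cKO. Padi4 encodes an enzyme that turns arginine in proteins into citrulline, and the knockout carries Padi4 fl/fl with K14-Cre, which acts in keratinocytes. The mouse lines also carry a tdTomato reporter, and tdTomato-positive cells of the dermal side were sorted from both genotypes, so epidermis between follicles was largely removed. The WT cells came from the K14-Cre and tdTomato reporter line, per the study. The protocol labels name K14-Cre Padi4 fl/fl for both libraries, and the Padi4 alleles of the WT mice were not given in the sources used here.

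The libraries held 143938990 (WT) and 143945294 (PADI4 cKO) unique molecular identifiers (UMIs, each marking 1 captured RNA molecule), and 8071 and 7392 cells passed the filters with medians of 14670 and 16208 UMIs. The 2 sets of cells shared 14 barcodes. There was 1 library per genotype, so intervals below are 95% intervals that cover counting error only. Values in pairs are given with WT first. Padi4 itself gave 98 and 88 UMIs, a log2 ratio of -0.18 (-0.61 to 0.25), which did not separate the libraries, so the knockout is called the library labelled PADI4 cKO. Of the WT library, 62.5% of epithelial cells held UMIs of Y-linked genes without Xist and 26.0% held Xist without Y-linked UMIs. In the other library 98.3% held Xist without Y-linked UMIs, so genotype and sex cannot be told apart in a plain comparison of the libraries.

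Metallothioneins are small cytosolic proteins in which cysteines bind zinc, copper and cadmium. Mt1 and Mt2 are made in most tissues and are induced by zinc, through the transcription factor MTF1 and metal response elements in their promoters, and by glucocorticoids. Mt3 is known from brain, and Mt4 from stratified squamous epithelia. In the follicle, dividing matrix cells of the bulb give rise to the hair shaft, made of medulla, cortex and cuticle, and to the inner root sheath (IRS). The outer root sheath (ORS) and lower proximal cup (LPC) surround this compartment, while the upper HF (uHF) joins the sebaceous gland (SG) and the interfollicular epidermis (IFE).

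The 4 genes lay in 1 cluster on the plus strand of chromosome 8 (GRCm38, GENCODE vM21, the build called mm10 in the submitters' processing notes). Mt4 was at chr8:94137197-94139031, Mt3 at chr8:94152607-94154146, Mt2 at chr8:94172664-94173568 and Mt1 at chr8:94179082-94180327, so that 43131 bases held all of them. Each had 3 exons in its first-named transcript. The coding sequences are shown because they carry what makes the family: each holds 20 cysteine codons, written in capitals, among 61 codons in Mt1 and Mt2, 68 in Mt3 and 62 in Mt4.
Mt1: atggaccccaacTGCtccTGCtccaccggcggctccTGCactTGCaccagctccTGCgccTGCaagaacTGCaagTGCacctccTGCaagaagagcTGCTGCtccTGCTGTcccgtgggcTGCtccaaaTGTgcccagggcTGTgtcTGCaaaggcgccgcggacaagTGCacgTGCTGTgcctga
Mt2: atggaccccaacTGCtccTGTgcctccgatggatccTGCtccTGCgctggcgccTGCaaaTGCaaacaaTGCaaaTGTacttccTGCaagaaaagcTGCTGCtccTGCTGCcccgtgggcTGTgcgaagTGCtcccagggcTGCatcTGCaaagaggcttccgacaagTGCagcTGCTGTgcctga
Mt3: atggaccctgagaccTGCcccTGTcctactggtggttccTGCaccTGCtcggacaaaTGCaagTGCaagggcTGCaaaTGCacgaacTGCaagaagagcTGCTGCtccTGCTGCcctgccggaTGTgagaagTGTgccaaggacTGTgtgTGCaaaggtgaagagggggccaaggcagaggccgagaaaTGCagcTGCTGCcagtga
Mt4: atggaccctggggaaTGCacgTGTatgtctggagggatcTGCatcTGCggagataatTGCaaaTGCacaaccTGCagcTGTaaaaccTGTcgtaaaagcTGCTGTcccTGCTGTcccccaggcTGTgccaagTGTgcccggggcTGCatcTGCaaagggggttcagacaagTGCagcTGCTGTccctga
Aligned end to end, Mt1 and Mt2 were identical at 79.6% of columns, and Mt3 and Mt4, the least alike pair, at 63.3%. None of the 31-base stretches in the last 500 bases of the Mt1, Mt3 or Mt4 transcripts occurred in another listed gene, and 3 of 562 Mt2 stretches also occurred in Pip5k1a, so reads from the captured 3′ ends could be assigned to single members. The antisense gene Gm45774 overlaps Mt2 and had 65 and 78 UMIs in epithelial cells, against 105337 and 101723 for Mt2.

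Windows before the gene start are shown for the 3 members with more than trace levels, because metal response elements are known from the promoters of Mt1 and Mt2. Whether a window holds the promoter in use was not tested, nor was any link to the levels by class. Each is the 250 bases before the RefSeq gene start (GRCm38.p6, plus strand), with capitals marking the 7 letters of a metal response element core, TGCACNC or TGCGCNC, on either strand.
Mt2, chr8:94172368-94172617: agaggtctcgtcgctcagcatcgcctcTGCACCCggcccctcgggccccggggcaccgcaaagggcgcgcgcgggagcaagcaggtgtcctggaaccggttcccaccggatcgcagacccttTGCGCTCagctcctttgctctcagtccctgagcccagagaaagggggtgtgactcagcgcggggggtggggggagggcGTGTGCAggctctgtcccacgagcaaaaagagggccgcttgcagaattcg
Mt1, chr8:94178839-94179088: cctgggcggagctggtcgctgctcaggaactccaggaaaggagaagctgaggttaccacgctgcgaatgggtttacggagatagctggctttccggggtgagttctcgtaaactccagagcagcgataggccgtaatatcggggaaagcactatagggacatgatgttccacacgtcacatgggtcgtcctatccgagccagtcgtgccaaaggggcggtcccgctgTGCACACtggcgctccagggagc
Mt4, chr8:94136954-94137203: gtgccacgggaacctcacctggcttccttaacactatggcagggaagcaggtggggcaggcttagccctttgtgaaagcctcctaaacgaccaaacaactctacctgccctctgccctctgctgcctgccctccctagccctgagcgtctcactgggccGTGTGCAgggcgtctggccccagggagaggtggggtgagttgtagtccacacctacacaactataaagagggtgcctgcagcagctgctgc
Mt2 held 3 matches, Mt1 and Mt4 held 1 each, and the window of Mt3 held 0. Of 32851 RefSeq windows of this length, 21.4% held at least 1 match and 1.26% at least 3. A match is a run of letters and was not tested as a binding site, and sites outside these windows were not searched. The windows were not placed alike to the GENCODE transcript start. It lay 47 bases past the window end in Mt2, but at -6, inside the window, in Mt1 and Mt4. The counts of matches are therefore not compared between members.

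Mt1 and Mt2 were highest in the matrix-like cells, which were gated by genes of the germinative layer such as Msx1, Myb, Shh and Dlx3. Mt1 reached 3032 counts per 1000000 UMIs (CPM, interval 3006 to 3058) in 909 WT cells and 2676 (2655 to 2697) in the 1093 such cells labelled PADI4 cKO. In the same cells Mt2 reached 2101 (2080 to 2123) and 1832 (1815 to 1849) CPM. Every matrix-like cell of both libraries held at least 1 UMI of Mt1, 58.2 and 57.7 per cell on average. Thinned to 2000 UMIs per cell, 97.0% and 95.2% of these cells still held Mt1.

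Medulla-like cells, gated by Krtap8-1, Foxq1, Padi3, Padi4 and Bambi, came next for both genes. Their Mt1 level was 1867 (1813 to 1923) CPM in 128 WT cells and 1520 (1460 to 1583) in the 78 PADI4 cKO-labelled cells, and their Mt2 level was 1177 and 1048 CPM. Cortex-like cells, gated by hair keratins such as Krt35 and Krt86, had 940 and 574 CPM of Mt1 and 521 and 368 CPM of Mt2. IRS-like cells had 756 and 707 CPM of Mt1 and LPC-like cells 692 and 605, below the cortex-like level in WT but not in the other library. Both genes were lowest in ORS-like cells, gated by genes such as Krt15, Sox9 and Lmo3, where Mt1 measured 171 (164 to 178) and 80.0 (75.3 to 84.8) CPM and Mt2 55.2 and 38.8 CPM. Free RNA alone, estimated from empty droplets (fewer than 100 UMIs), would give ORS-like cells 69.6 and 66.9 CPM of Mt1 and 44.0 and 44.4 CPM of Mt2. Most of Mt2 in ORS-like cells is therefore read as background, and so is most of Mt1 in those labelled PADI4 cKO. The WT interval of Mt2, 51.4 to 59.3, lay above its free RNA estimate. In WT, Mt1 spanned 17.7-fold from ORS-like to matrix-like cells.

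Mt4 had another order. It was highest in the 2 classes gated by shaft markers, called shaft classes here for their gates alone. Medulla-like cells held 687 (654 to 721) and 784 (741 to 830) CPM, and cortex-like cells 626 (585 to 669) and 839 (786 to 894) CPM. The intervals of these 2 classes overlapped in each library, so their order was not resolved. Matrix-like cells held less than the shaft classes, 269 (262 to 277) and 271 (264 to 277) CPM. All 128 WT medulla-like cells and 97.4% of the PADI4 cKO-labelled ones held Mt4. After thinning these shares were 71.9% (63.2 to 79.5) and 80.8% (70.3 to 88.8), against 32.7% and 30.2% of matrix-like cells.

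Outside shaft and matrix, Mt4 was at 50.4 and 70.1 CPM in IRS-like cells, 27.5 and 25.1 in LPC-like cells and 8.54 and 8.43 in ORS-like cells. Free RNA sets a limit here. Droplets with fewer than 100 UMIs, taken as empty, held 156 and 175 CPM of Mt4. The 20 genes lowest in ORS-like cells relative to these droplets put the free RNA share there at 4.37% and 4.63%. That share alone would give 6.84 and 8.09 CPM of Mt4, close to the measured values, so Mt4 in ORS-like cells is read as background. Likewise, 5.55% and 3.11% of ORS-like cells held an Mt4 UMI, at median depths of 10329 and 11182 UMIs against 15363 and 16870 in medulla-like cells.

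Mt3 was barely captured. All epithelial cells together held 114 and 110 of its UMIs, or 0.899 and 0.854 CPM. Matrix-like cells held 39 and 57 of these, 2.23 (1.59 to 3.05) and 2.42 (1.83 to 3.13) CPM. Medulla-like cells held 5 and 4 UMIs and cortex-like cells 3 and 2. In the uHF-like and SG-like classes no UMI was seen in either library, which allows up to 0.472 and 0.586 CPM in uHF-like and 1.61 and 1.48 CPM in SG-like cells (3 counts per library). In the IRS-like and ORS-like classes there was at most 1. Empty droplets of the 2 libraries held 4 and 17 Mt3 UMIs, 0.656 and 2.20 CPM.

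**Figure D1:**
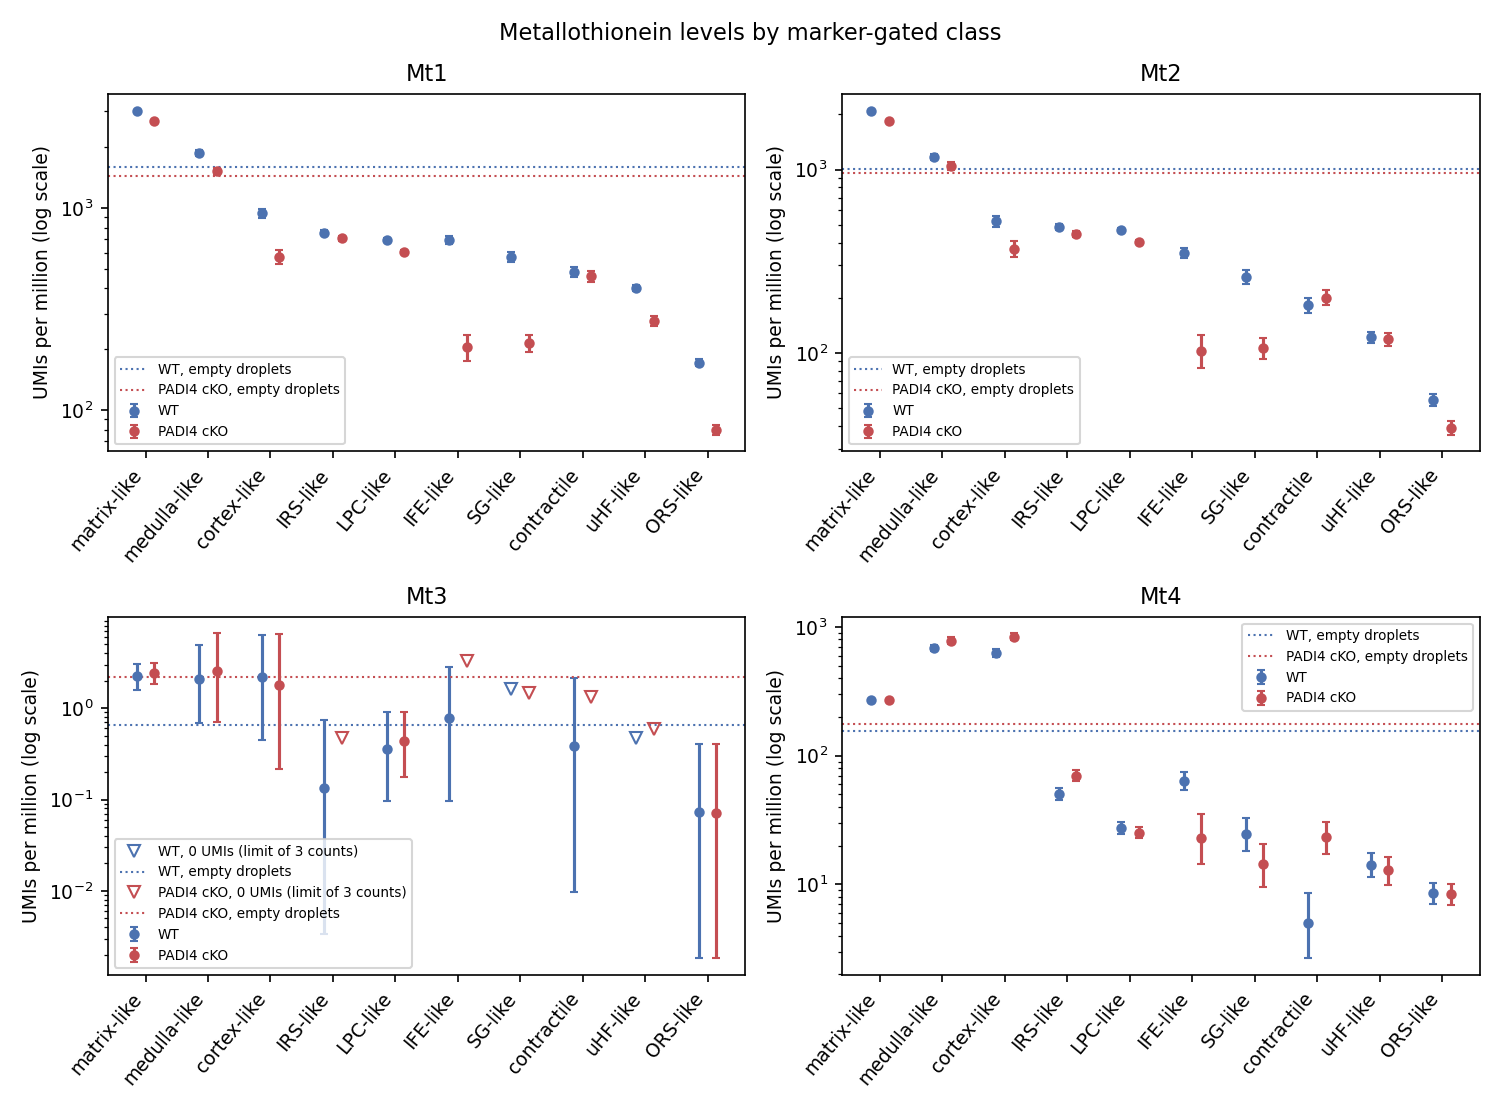
Level of each metallothionein in counts per 1000000 UMIs (CPM, vertical axes, log scale) in 10 marker-gated classes of the WT and PADI4 cKO libraries; bars are 95% counting intervals, open triangles mark 0 UMIs at the limit of 3 counts, and dotted lines give the empty droplets. Mt1 and Mt2 peak in matrix-like cells (3032 and 2101 CPM in WT), Mt4 in medulla-like and cortex-like cells (687 and 626 CPM in WT).

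The order of the other neighbours was partly unresolved. For Mt1 in WT the IFE-like (693 CPM) and LPC-like (692 CPM) intervals overlapped. In the other library the Mt1 intervals of LPC-like and cortex-like cells overlapped, as did those of SG-like and IFE-like cells. For Mt2 in WT the cortex-like, IRS-like and LPC-like intervals ran into each other. For Mt4 in WT, IFE-like overlapped IRS-like, LPC-like overlapped SG-like and ORS-like overlapped contractile cells. Every other step between neighbouring classes in Mt1 lay outside its counting intervals, which is no statement about animals. A further 47.4% of WT and 43.6% of PADI4 cKO-labelled epithelial cells passed no gate. These held 1349 and 1179 CPM of Mt1 and 130 and 145 CPM of Mt4, between the matrix-like and ORS-like values.

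Set against all other epithelial cells, Mt4 was 2.57 and 2.59 log2 units higher in medulla-like cells, while Mt1 was 0.57 and 0.39 and Mt2 0.52 and 0.42 higher. Mt3 was at 1.39 and 1.79 with intervals that included 0. Thus 2 of 4 members were above 1 in both libraries, where 3.37% of 13394 genes were. In matrix-like cells Mt1 was 1.61 and 1.69, Mt2 1.74 and 1.72, Mt3 1.71 and 2.26 and Mt4 1.38 and 1.32 log2 units above the other cells. All 4 members were past 1 in each library there, beside 0.896% of genes. The members were picked for such differences, and nothing is read from these counts.

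Few cells of other types passed the gates. The marker gates found 20 and 11 fibroblast-like and 44 and 41 melanocyte-like cells, which were kept apart, and cells in clusters led by such markers were taken out of the epithelial classes. Cells scored as likely doublets made up 9.38% and 6.41% of medulla-like cells, and without the doublets the Mt4 level there was 741 and 844 CPM. The medulla gate left 4 of 5 markers at least 1.5-fold above the other epithelial cells, and Krtap7-1, Krt90 and Krtap8-1 were among its top 10 genes by fold. Padi4, the targeted gene, is one of these 5 markers. In cortex-like cells 5 of 11 markers, and in matrix-like cells 10 of 11, were raised to this degree. Within 0.1 of the gate's threshold lay 80 and 69 of the matrix-like cells and 0 of the medulla-like cells. The matrix markers summed to 3067 and 3733 CPM in medulla-like cells, against 4681 and 5067 in matrix-like cells. The medulla gate is thus not free of matrix transcripts.

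The proportion of the members to each other differed between classes. In matrix-like cells there were 0.693 (0.684 to 0.702) and 0.685 (0.676 to 0.693) Mt2 UMIs per Mt1 UMI. IRS-like and LPC-like cells had nearly the same proportion, between 0.630 and 0.675, as did the empty droplets at 0.633 and 0.664. In uHF-like cells the proportion was 0.303 (0.279 to 0.329) and 0.431 (0.391 to 0.474), and in ORS-like cells it was 0.323 (0.297 to 0.350) and 0.486 (0.437 to 0.539). The ORS-like values, and those of uHF-like cells in part, include free RNA, whose estimate for Mt2 in uHF-like cells was 81.0 and 66.7 CPM of 122 and 119. Since these UMIs count 3′ ends, the ratio is of captured molecules and does not depend on transcript length.

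The Mt4 per Mt1 ratio changed far more. It was 0.0889 and 0.101 in matrix-like cells, 0.368 (0.347 to 0.389) and 0.516 (0.481 to 0.553) in medulla-like cells, and 0.666 (0.610 to 0.726) and 1.46 (1.32 to 1.62) in cortex-like cells. In cortex-like cells of the library labelled PADI4 cKO there were more Mt4 than Mt1 molecules. LPC-like cells had 0.0397 and 0.0416.

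**Figure D2:**
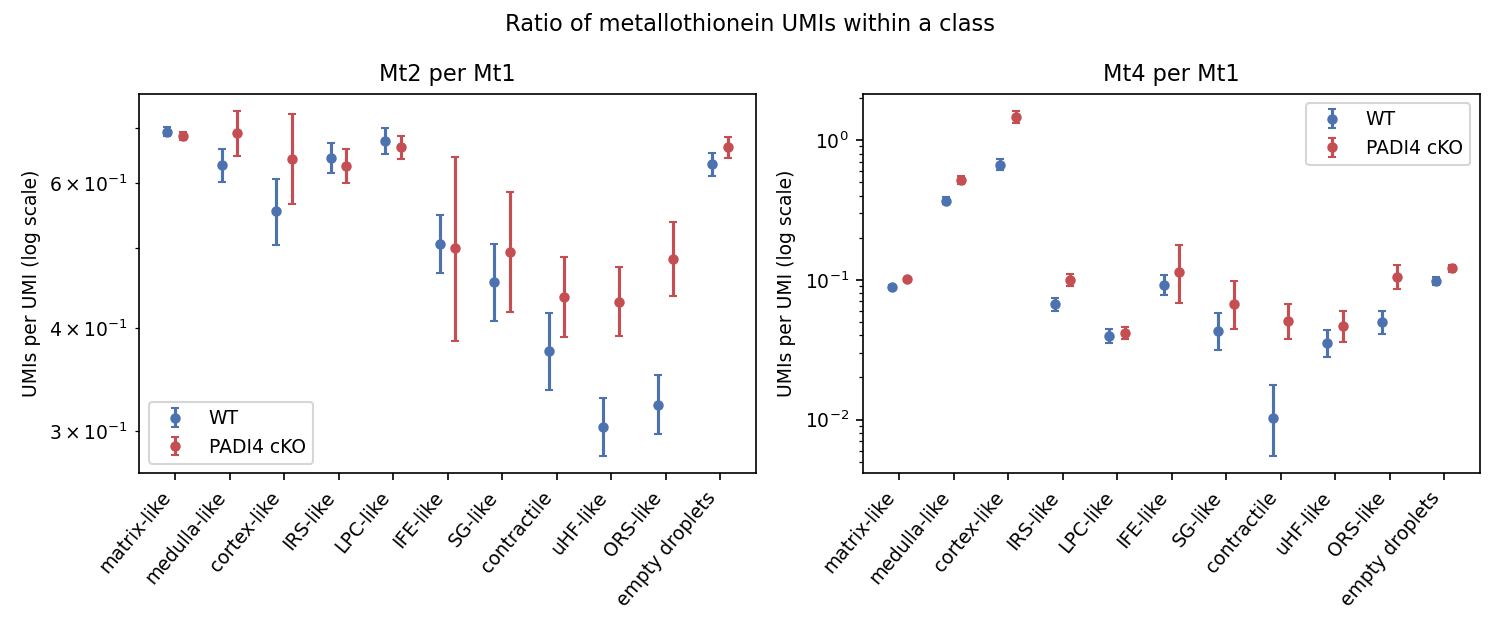
Mt2 UMIs per Mt1 UMI (left) and Mt4 UMIs per Mt1 UMI (right), both on log scales, by class and library with 95% counting intervals. Mt2 per Mt1 is near 0.69 in matrix-like cells and lowest in WT uHF-like cells (0.303); Mt4 per Mt1 is highest in cortex-like cells (0.666 and 1.46).

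Mt1 and Mt4 were also counted cell by cell. Every matrix-like cell held Mt1, so the 64.9% of cells with both in each library is just the share with Mt4. In medulla-like cells 99.2% and 97.4% held both, and in cortex-like cells 90.5% and 91.7%. Mt1 was held by 99.2% and 100% of medulla-like and 97.6% and 96.7% of cortex-like cells. These shares are therefore set largely by Mt4 and say little about pairing. Among cortex-like cells with at least 100 CPM of Mt4 the median Mt1 level was 760 and 440 CPM, against 505 and 227 CPM in the rest, which were only 8 and 5 cells. In matrix-like cells it was 2716 and 2308 CPM against 2910 and 2628, so there the cells rich in Mt4 had slightly less Mt1.

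Krt35, a keratin of the early hair cortex and cuticle, served as a second scale, over epithelial cells that were not IRS-like. Cells without Krt35 held 38.9 and 44.5 CPM of Mt4, cells with 200 to 1000 CPM of Krt35 held 551 and 633, and cells at 4000 CPM and above held 741 (695 to 789) and 882 (829 to 938). Mt1 went up and then down: 1142 and 1046 CPM without Krt35, 2245 and 1933 at 200 to 1000 CPM, and 752 (705 to 801) and 522 (481 to 565) at 4000 and above. Mt2 had the same shape as Mt1, with 1625 and 1427 CPM in the middle and 340 and 211 at the top. At the highest Krt35 level the Mt1 and Mt4 intervals overlapped in WT, and in the library labelled PADI4 cKO Mt4 was above Mt1. Only 86 and 71 cells made up this last step.

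**Figure D3:**
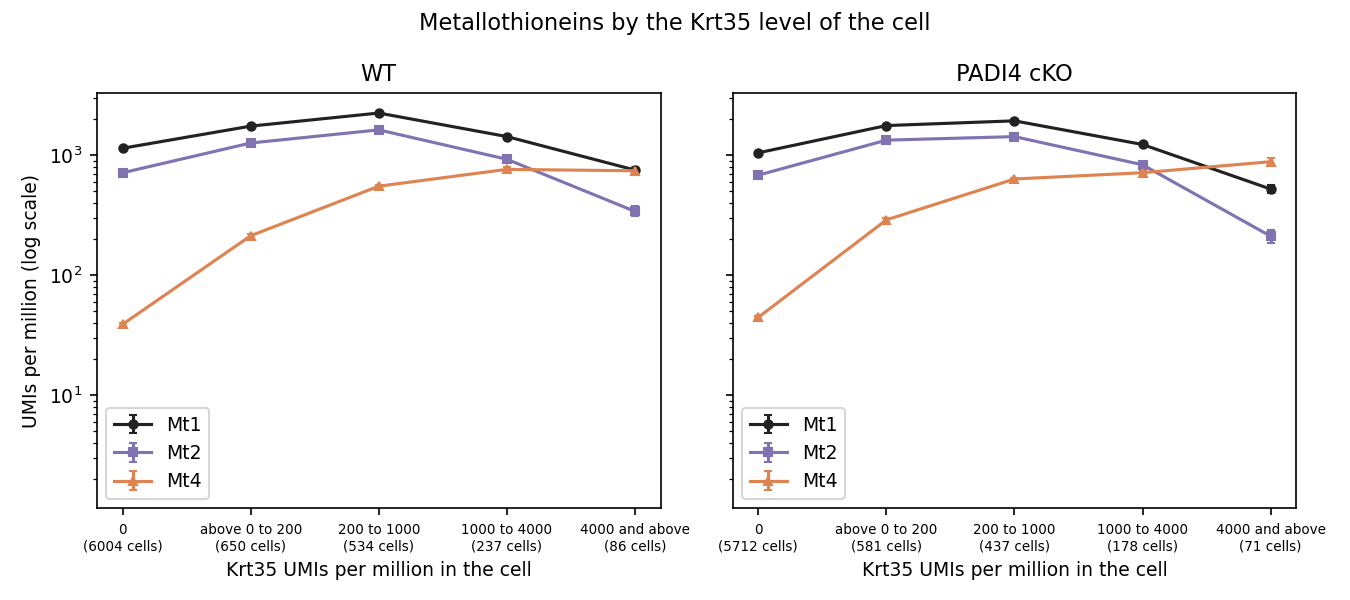
Mt1, Mt2 and Mt4 in CPM (log scale) in epithelial cells other than IRS-like ones, binned by the Krt35 level of the cell, for each library with 95% counting intervals and cell numbers under the axis. Mt4 reaches 741 and 882 CPM in the last bin, while Mt1 is highest at 200 to 1000 CPM of Krt35 (2245 and 1933 CPM).

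Mki67 and Top2a, genes of dividing cells, gave a further contrast. Matrix-like cells with at least 2 UMIs of these genes held 3105 and 2757 CPM of Mt1, and those without any held 1801 (1702 to 1904) and 1494 (1422 to 1570). In this class Mt4 was the other way round, 246 and 255 CPM with these UMIs and 639 (581 to 701) and 515 (473 to 560) without. Of the medulla-like cells, 67 of 128 and 42 of 78 held at least 2 of these UMIs. Medulla-like cells gave 2169 and 1729 against 1180 and 1014 CPM for Mt1, and 580 and 703 against 900 and 860 CPM for Mt4. In WT LPC-like cells Mt4 instead went the same way as Mt1, with 29.5 (26.2 to 33.2) against 14.8 (8.07 to 24.8) CPM. In the other library the LPC-like intervals overlapped, at 25.4 (22.7 to 28.3) against 20.1 (14.3 to 27.5). ORS-like cells gave 11.7 and 17.5 against 6.54 and 1.67 CPM. The free RNA estimate for that class was 6.84 and 8.09 CPM, and Mt4 is read as background there, so no direction is taken from it. Mt2 in ORS-like cells was at 92.5 (84.5 to 101) and 75.1 (66.9 to 84.1) CPM with these UMIs, and at 31.2 and 18.9 without. Its free RNA estimate for the whole class was 44.0 and 44.4 CPM. The cells without Mki67 and Top2a were shallower, with medians of 13138 and 14658 UMIs in the matrix-like class against 19134 and 21230, and the part of depth in this split was not tested.

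Single marker genes placed the peaks further. Cells with at least 2 UMIs of Gfra3 held 2388 and 2523 CPM of Mt1 but only 42.3 and 60.0 CPM of Mt4. Cells with Cldn10 held 2695 and 2417 CPM of Mt1 and 362 and 395 CPM of Mt4. Cells with Krtap8-1, a hair keratin-associated protein gene, held 707 and 776 CPM of Mt4 and 1928 and 1723 CPM of Mt1. In cells with the IRS keratin Krt71, Mt4 was at 36.0 and 33.1 CPM and Mt1 at 519 and 534. Cells with Krt75, a companion layer keratin that the study used to mark hair shaft lineages, held 1565 and 1649 CPM of Mt1. This set is therefore not read as companion layer. The companion-like gate kept only 27 and 17 cells and was not compared.

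Between the libraries, Mt1 was lower in the library labelled PADI4 cKO in 10 of 10 classes, by counts, with the interval below 0 in 9. Over all cells it was past -0.5 on the log2 scale in 5 classes. These were cortex-like cells at -0.71 (-0.85 to -0.57), where 2.96% of all tested genes were below -0.5, uHF-like cells at -0.54 (-0.64 to -0.45; 3.45% of genes), ORS-like cells at -1.10 (-1.20 to -0.99; 3.4% of genes), SG-like cells at -1.42 (-1.59 to -1.26; 3.47% of genes) and IFE-like cells at -1.76 (-1.99 to -1.54; 8.14% of genes). Where Mt1 was most abundant, the ratio was smaller, at -0.18 (-0.20 to -0.16) in matrix-like cells (1.28% of genes below -0.5) and -0.30 (-0.37 to -0.22) in medulla-like cells (3.51%). IRS-like cells were at -0.09 (1.42%), LPC-like cells at -0.20 (2.02%) and contractile cells at -0.08 (3.43%). Among cells with Xist alone, Mt1 was below 0 in 7 of 10 classes, with the interval below 0 in 6 and above 0 in 2, and of the 5 classes named above ORS-like cells were then at -0.33 and uHF-like cells at 0.24. The 7 and the 6 include the IFE-like class, with only 16 WT cells, and the SG-like class, with 21.

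Mt2 was below 0 in 9 of 10 classes and past -0.5 in 4. IFE-like cells were at -1.77 (8.14% of tested genes below -0.5) and SG-like cells at -1.30 (3.47%). ORS-like cells were at -0.51 (3.4%) and cortex-like cells at -0.50 (2.96%), the last at the threshold. Mt2 is read as mostly background in ORS-like cells. It is read as background in the PADI4 cKO-labelled IFE-like cells, at 102 CPM with a free RNA estimate of 145. In matrix-like cells Mt2 was at -0.20 (-0.22 to -0.18), close to Mt1. Among cells with Xist alone Mt2 was below 0 in 7 of 10 classes, the IFE-like class with its 16 WT cells among them, with 2 intervals above 0. ORS-like cells were then at 0.19 (-0.10 to 0.49), uHF-like cells at 0.56 (0.24 to 0.92) and SG-like cells at -0.76 (-1.22 to -0.26). The ORS-like ratio was also -0.07 in Leiden clusters and -0.31 with a stricter gate. In SG-like cells Mt2 was at 260 CPM over all WT cells but at 117 in those with Y-linked UMIs and 165 in those with Xist. Against the former the ratio was -0.26 (-0.58 to 0.07). In uHF-like cells Mt2 was likewise at 122 CPM over all WT cells but at 89.3 and 80.3 in these sets. The uHF-like ratio against WT cells with Y-linked UMIs was 0.42 (0.23 to 0.60), and the ORS-like one was -0.30 (-0.49 to -0.11). WT cells with both kinds of UMI, or with neither, are in neither set, and their part was not tested. Over all cells, contractile cells, gated by Acta2 and Tagln, were the exception at 0.14 (-0.05 to 0.33). No p-value can be given for any of these ratios, since 1 library per genotype leaves no spread between animals to set them against.

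Mt4 did not follow Mt1 and Mt2. It had at least 100 UMIs in 8 classes and was above 0 in 4 and below 0 in 4 of them. It was higher in the library labelled PADI4 cKO in cortex-like cells by 0.42 (0.29 to 0.56), in IRS-like cells by 0.48 (0.28 to 0.68) and in medulla-like cells by 0.19 (0.08 to 0.30), and none of these 3 was past 0.5, as 5.47%, 1.88% and 2.49% of genes were in the same classes. Only 26.7% and 29.9% of IRS-like cells held an Mt4 UMI, the free RNA estimate there was 11.4 and 23.6 CPM, and in cells picked by Krt71 alone Mt4 was at 36.0 (31.3 to 41.2) and 33.1 (28.0 to 38.9) CPM, with no higher value in the library labelled PADI4 cKO. In matrix-like cells the ratio was 0.01 (-0.05 to 0.06), and in IFE-like cells -1.43 (-2.19 to -0.80). The WT IFE-like UMIs of Mt4 came from 17 of 156 cells. Contractile and SG-like cells had fewer than 100 Mt4 UMIs and are not among the 8 classes. Contractile cells were at 2.18 (1.32 to 3.22) on 13 and 52 UMIs, the latter from 9 of 107 cells. SG-like cells were at -0.77 (-1.51 to -0.08) on 46 and 29 UMIs. Mt3 was too sparse for a ratio within classes, and over all epithelial cells its ratio was -0.07 (-0.47 to 0.32).

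**Figure D4:**
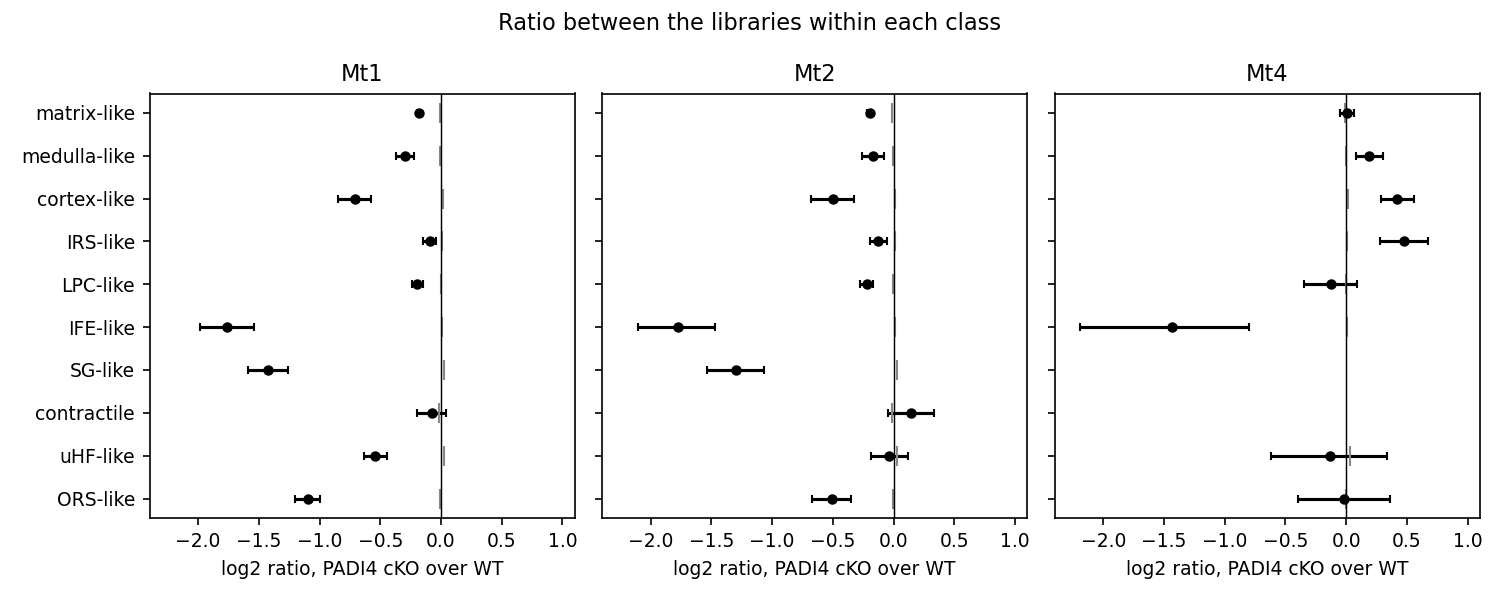
Log2 ratio of CPM, PADI4 cKO over WT, for Mt1, Mt2 and Mt4 in each class with at least 100 UMIs of the gene; bars are 95% counting intervals and grey ticks the median of all genes tested in that class. Mt1 is below 0 throughout, from -1.76 in IFE-like cells to -0.08 in contractile cells, and Mt4 is above 0 in the medulla-like, cortex-like and IRS-like classes.

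Some of these values rest on few cells or on levels near the free RNA. The 62 PADI4 cKO-labelled IFE-like cells held 204 CPM of Mt1, and the free RNA estimated there would give 218, so Mt1, Mt2 and Mt4 are read as background in them. The 156 WT cells held 693 CPM of Mt1 with a free RNA estimate of 220. SG-like cells, 111 and 126 in number, held 573 and 214 CPM of Mt1 with free RNA estimates of 124 and 75.1, and their ratio ran from -2.62 in Leiden clusters to -0.95 among cells with Xist. In ORS-like cells the free RNA estimate for Mt1 was 69.6 and 66.9 CPM, beside levels of 171 and 80.0, and with it taken off the Mt1 ratio there became -2.95. Without likely doublets the uHF-like Mt1 ratio was -1.03.

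The sex-linked transcripts moved with several of these ratios. Within the WT library, ORS-like cells with Y-linked UMIs held 172 CPM of Mt1 and those with Xist UMIs 97.9, a log2 ratio of -0.81 (-0.98 to -0.64) inside a single library. The ORS-like cells with Xist in the library labelled PADI4 cKO held 77.7 CPM, -0.33 (-0.51 to -0.15) from the WT cells with Xist. In uHF-like cells the 2 sets of WT cells differed by -0.70 (-0.91 to -0.51), and cells with Xist in the library labelled PADI4 cKO stood 0.24 (0.04 to 0.44) above their WT counterparts. The uHF-like ratio thus turned its direction when only cells with Xist were compared.

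The class made a difference to this split. LPC-like cells with Xist held 600 and 605 CPM of Mt1, a ratio of 0.01 (-0.06 to 0.09), and contractile cells with Xist held 345 and 461 CPM, a ratio of 0.42 (0.21 to 0.63), so neither was lower in the library labelled PADI4 cKO. In matrix-like cells Mt1 was at 3161, 2902 and 2675 CPM in WT cells with Y-linked UMIs, WT cells with Xist and PADI4 cKO-labelled cells with Xist, and the ratio among cells with Xist was -0.12 (-0.14 to -0.09). Cortex-like cells gave 947, 901 and 588 CPM, and the ratio among cells with Xist was -0.62 (-0.80 to -0.43). For Mt4 the same 3 sets gave 641, 579 and 852 CPM in cortex-like cells, a ratio of 0.55 (0.36 to 0.76), and 50.3, 48.7 and 70.7 CPM in IRS-like cells, a ratio of 0.53 (0.19 to 0.90). The medulla-like ratio of Mt4 was 0.05 (-0.11 to 0.22) among cells with Xist, so the higher value of the whole class was not kept. How many animals each set came from was not given in the sources used here.

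**Figure D5:**
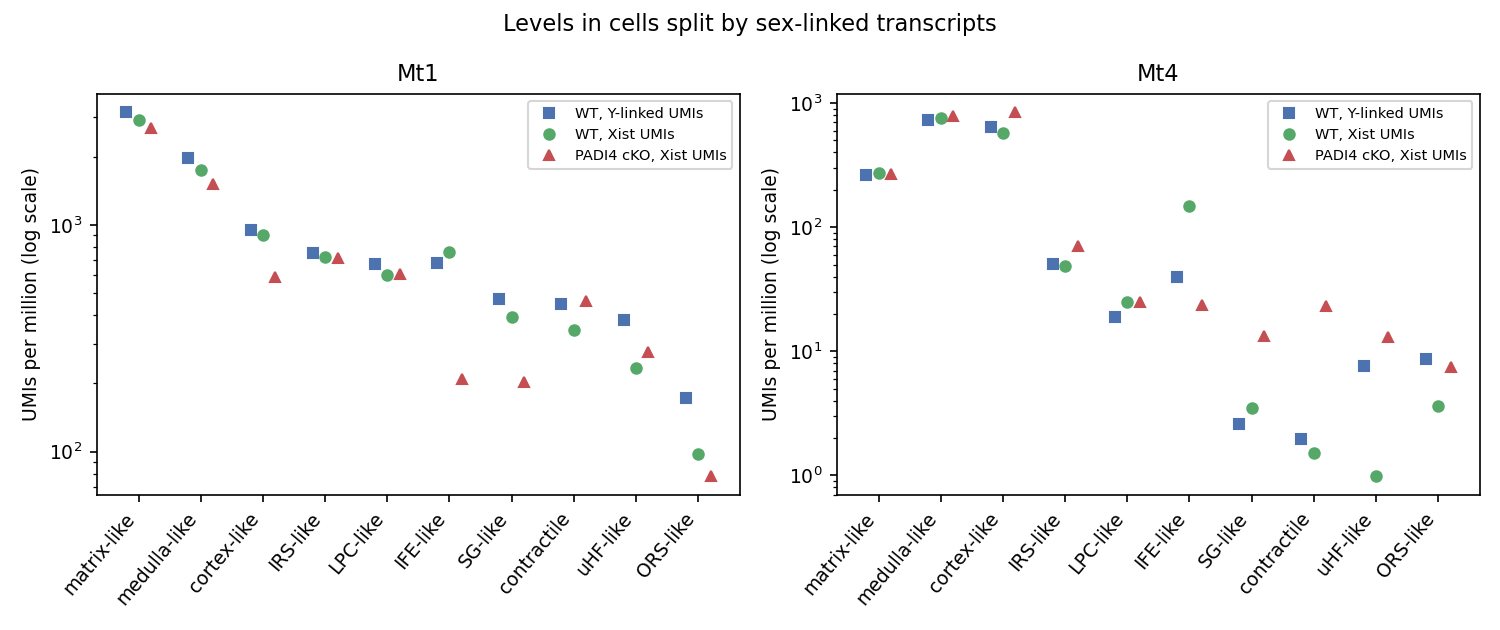
Mt1 (left) and Mt4 (right) in CPM (log scale) by class in 3 sets of cells: WT cells with Y-linked UMIs, WT cells with Xist UMIs and PADI4 cKO cells with Xist UMIs; sets with 0 UMIs are not drawn. In ORS-like cells Mt1 is 172 and 97.9 CPM in the 2 WT sets and 77.7 in the PADI4 cKO set, while in cortex-like cells Mt4 is highest in the PADI4 cKO set (852 CPM).

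The lists of other genes cover zinc, copper and iron handling, oxidative stress targets, glucocorticoid response and dissociation response. Of their 58 tested genes in 7 lists, 4 were above 1 and 5 below -1 in both libraries in medulla-like against other epithelial cells, where 3.37% of all genes were above and 7.93% below. Mtf1, the zinc-sensing transcription factor, was at 17.6 and 16.7 CPM in medulla-like cells, 0.07 and 0.12 log2 units from the others, and Slc30a1, a zinc exporter known as an MTF1 target, was at -0.12 and -0.02. Both were picked after their values were seen. Of 7 zinc sensing and export genes only Slc30a4 was past 1 in both libraries, at -3.64 (-9.53 to -1.75) and -1.50 (-3.55 to -0.31), on 1 and 4 UMIs. Of 10 zinc importers, Slc39a11 was higher in medulla-like cells by 1.20 and 1.34, with 191 and 239 CPM, and Slc39a6 was lower, at -1.19 and -1.57.

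In the copper list none of 10 was past 1 in both libraries, and Atox1, a copper chaperone with the most UMIs of that list, was at -0.51 and -0.38. Of the iron genes, Slc40a1, which encodes the iron exporter ferroportin, was higher by 2.91 and 2.62, with 320 and 262 CPM against 42.6 and 42.5 in the other cells. Hmox1, a heme-degrading enzyme, was higher by 1.80 and 1.48, but at only 5.03 and 3.86 CPM, and Nqo1, another oxidative stress target, was counted as lower on only 1 and 0 UMIs. In the glucocorticoid list Tsc22d3 was higher by 2.04 and 1.57, Zbtb16 lower at -1.93 and -3.16 and Nr3c1, the receptor itself, lower at -1.01 and -1.36. The median of each list lay between -0.82 and 0.24 in WT, beside -0.05 over all genes tested. None of the 10 dissociation response genes was past 1 in both libraries in either class, and Jun, with the most UMIs, was at 0.31 and -0.05 in medulla-like cells.

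The matrix-like cells, where Mt1 and Mt2 were highest, gave 1 gene above 1 and 11 below -1 of the same 58, beside 0.896% and 11.4% of all genes. This contrast was added after the data were seen. The gene above was again Slc39a11 (1.17 and 1.05). Of 7 glucocorticoid genes, 5 were below -1 in both libraries, among them Nr3c1 at -1.40 and -1.34 and Sgk1 at -1.57 and -1.95. Mtf1 was at -0.03 and 0.11. Of the genes beside the cluster, Nup93, a nuclear pore gene with the most UMIs among them, was at 0.07 and -0.03 in medulla-like and 0.42 and 0.41 in matrix-like cells.

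Over the 10 classes of both libraries, 20 points that share libraries and depth, Mt1 and Mt2 were correlated at r = 0.98 on log2(CPM + 1), Mt1 and Mt4 at 0.75 and Mt2 and Mt4 at 0.79. Among 5411 genes, those most like Mt4 were Lef1 (r = 0.97), Slc16a6, Sat1, Bambi, Cldn10, Aspscr1, H3f3a, Crhr1, Gmcl1 and Kctd6. Lef1, a Wnt pathway transcription factor of hair progenitors, was at 1829 and 1707 CPM in medulla-like cells and 44.0 and 36.5 in ORS-like cells. Bambi was also a marker of the medulla gate. Those most like the sum of Mt1 and Mt2 were Dcn (r = 0.96), Mycl, Med21, Snrpf, Nudt21, Hmgb3, Anapc5, Hnrnpu, Maco1 and Mboat1. Dcn, which encodes the proteoglycan decorin, was at 1666 and 1612 CPM in matrix-like, 1103 and 1234 in medulla-like and 47.3 and 25.4 in ORS-like cells. These are likenesses of profiles over few points and say nothing of shared control.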

How the data were processed

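The authors deposited, for each library, a matrix of raw UMI counts per gene and barcode, written by Cell Ranger 7.1.0 per the file headers (Chromium 3′ v3.1). The CellBender filtering in their methods had not been applied to the deposited counts, and it was not run here, so free RNA stayed in the counts. Strand settings of the counting were not given in the sources used here. The build was mm10, per the labels and the submitters' processing notes. The members and gene lists were chosen with earlier results of these data known.

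A barcode counted as a cell at 2000 to 60000 UMIs and 1000 to 8000 genes, with mitochondrial UMIs up to 20%, hemoglobin UMIs up to 1%, and a ribosomal share from percentile 5 to 99. Cells were gated by 16 marker lists without the members, at a mean z-score of at least 0.5, a lead of 0.2 over the next list and 3 markers detected. Comparisons used the 10 classes that held 50 or more cells per library. CPM is the summed UMIs of a gene per 1000000 UMIs, with exact Poisson intervals, and shares have exact binomial ones. Ratios were taken with 0.5 UMI added, with exact conditional binomial intervals. The smallest share or level that 0 counts allow was set at 3 counts. The ratio was also run on simulated Poisson counts of summed classes. Such counts hold no spread between cells or animals, so nothing is read from that run. Genes were tested with at least 100 UMIs. Named genes were, from each list, up to 4 past 1 in both libraries in medulla-like cells, otherwise the gene with the most UMIs, and the 10 most like Mt4 or Mt1 and Mt2 among genes with at least 50 CPM. The thresholds of the gate, the bins of Krt35, the single-marker sets, the Mki67 and Top2a split, the sets by Xist and Y-linked UMIs within WT and the matrix-like contrast for the lists were added after the data were seen. Scrublet found no working threshold in WT, so the threshold of 0.204 from the library labelled PADI4 cKO was used for both. Software was Python 3.11.15, NumPy 2.4.6, SciPy 1.17.1 and Scanpy 1.11.5.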

Additional observations from a re-analysis of the deposited data

Results flagged for a closer look

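The Mt4 ratio between the libraries had opposite signs in different classes, and the difference between the classes was not tested. It was 0.19 in medulla-like, 0.42 in cortex-like and 0.48 in IRS-like cells, each with a counting interval above 0, and -1.43 in IFE-like cells with the interval below 0. In the IFE-like class 21 UMIs from 62 cells made up the value of the library labelled PADI4 cKO.

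Mt4 was also counted in melanocyte-like cells, which enter none of the comparisons. Their level was 298 CPM in 44 WT cells and 452 CPM in 41 PADI4 cKO-labelled cells. The matrix markers summed to 1924 and 3040 CPM in the same cells, against 4681 and 5067 in matrix-like cells. The part of matrix cells in these droplets was not tested.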

How the results depend on the processing

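No paired analysis was possible because each genotype had 1 library. Among matrix-like cells, Mt1 in WT was 3063 CPM with empty-droplet UMIs subtracted, 3328 in Leiden clusters, 2989 with the stricter gate, 4079 without mitochondrial and ribosomal protein genes, 2902 in cells with Xist and 2960 as a mean over cells. In the library labelled PADI4 cKO it was 2733, 2886, 2642 and 3576 under the first 4 of these. Mt4 in WT medulla-like cells was 741 CPM without doublets, 760 in Leiden clusters, 926 without mitochondrial and ribosomal protein genes, 756 in cells with Xist and 777 as a mean over cells. In the library labelled PADI4 cKO it was 844 without doublets, 1060 without those genes and 855 as a mean over cells. The matrix-like Mt1 ratio was -0.21 in Leiden clusters, -0.12 in cells with Xist and -0.15 as a mean over cells. The ORS-like Mt1 ratio was -2.95 with empty-droplet UMIs subtracted, -0.33 in cells with Xist and -1.26 as a mean over cells. The medulla-like Mt4 ratio was 0.054 in cells with Xist. Among cells with Xist, the uHF-like Mt1 ratio reversed to 0.24 and the ORS-like Mt2 ratio to 0.19. The cause was not tested. The medulla-like shares with Mt4 were 71.9% and 80.8% after thinning, because fewer UMIs were read. In Leiden clusters 10 list genes were below -1. With Spearman correlation 4 of the 10 genes most like Mt4 and 5 of those most like Mt1 and Mt2 were shared, and 6 of the latter without matrix-like cells. Leiden clusters held no cortex-like or uHF-like class. Subtracting empty-droplet UMIs left no value for the ratios of Mt1 in IFE-like and Mt2 in ORS-like cells, and IFE-like cells with Xist were too few. The ORS-like Mt2 ratio was -0.07 in Leiden clusters. Over its alternatives the Mt1 ratio ran from -2.48 to -1.50 in IFE-like and from -0.91 to -0.61 in cortex-like cells, and the Mt4 ratio from 0.35 to 0.56 in IRS-like and from 0.37 to 0.56 in cortex-like cells. Depth limits Mt3, and a single library per genotype limits every ratio.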
